A study of Mus musculus with 6 samples.

Results

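The 10 genes described here make prostaglandins and leukotrienes from arachidonic acid in mouse peritoneal macrophages, and they were taken by name from the deposited expression table, where 10 of 54532 genes matched. They are Pla2g4a, Ptgs1, Ptgs2, Ptges, Ptgis, Tbxas1, Alox5, Alox5ap, Ltc4s and Alox15. RNA-seq was performed on 2 libraries from each of 3 groups of cells. The cells came from wild-type male C57BL/6J mice aged 6 to 8 weeks, collected from the peritoneal cavity 5 days after 3% thioglycolate, an irritant broth that draws macrophages there. Control cells were left untreated. Model cells were given 500 ng/mL LPS, a component of bacterial outer membranes, for 5.5 h and then 2 mM ATP for 0.5 h. MUS cells were given the same LPS and ATP, with 50 μM muscone, a macrocyclic ketone of musk, from 0.5 h before the ATP. There was no group with LPS alone or muscone alone, so the parts of LPS and ATP in a difference from Control cannot be told apart. Replicate 1 of every group belonged to batch 1 and replicate 2 to batch 2. Whether the libraries came from separate animals was not stated, so p-values measure the spread between these libraries, which may be technical.

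Eicosanoid synthesis starts when cytosolic phospholipase A2, the product of Pla2g4a, frees arachidonic acid from membrane lipids. Cyclooxygenases then turn it into a prostaglandin precursor, which separate terminal synthases convert into prostaglandin E2, prostacyclin or thromboxane, while 5-lipoxygenase and its partner protein FLAP lead to the leukotrienes. Ptgs1 (cyclooxygenase-1) is known as the constitutive form, and Ptgs2 (cyclooxygenase-2) and Ptges (microsomal prostaglandin E synthase-1) as the forms that macrophages induce on contact with bacterial products.

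The values are FPKM, fragments scaled by gene length and library size, so levels could be compared between genes. They derive from 15742538 and 17135442 fragments on genes for Control, 15529580 and 15526321 for Model, and 16222724 and 16481372 for MUS. The 9794 genes whose mean FPKM reached 1 were tested. Of the 10 genes, 7 reached that level, whereas Alox5, Ltc4s and Alox15 did not and are given as values. Fold changes are on the log2(FPKM + 1) scale, on which adding 1 shrinks the change of a gene with a low level. DEGs passed a limma adjusted p of 0.05 with a log2 fold change beyond 1 in either direction. For any 1 gene, exact permutation of 2 against 2 libraries reaches no p below 0.333, so the tests rest on the spread that limma pools across genes. In bulk RNA, a lower level cannot be told apart as fewer cells of a type or as less RNA per cell.

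The libraries carried macrophage RNA. All 7 macrophage markers had a mean FPKM of at least 1, and they summed to 11836 and 13340 FPKM in Control, 12535 and 8426 FPKM in Model, and 12096 and 10257 FPKM in MUS, most of it from the lysozyme gene Lyz2, so that the sum says little of the other 6. Of these, named after their values were seen, Csf1r was at 208 and 272 FPKM in Control, 83.4 and 101 FPKM in Model, and 98.0 and 105 FPKM in MUS, and Fcgr1 was at 18.3 and 7.87 FPKM in Control, 161 and 147 FPKM in Model, and 134 and 156 FPKM in MUS. Of 9 neutrophil markers, 4 were at 0 in every library, namely S100a9, Elane, Ly6g and Retnlg. What these values of 0 mean was not tested. The sum of the 9 was 13.8 and 30.9 FPKM in Control, 112 and 57.7 FPKM in Model, and 64.6 and 50.9 FPKM in MUS, nearly all of it S100a8, which alone had 13.5 and 30.6 FPKM in Control, 110 and 56.5 FPKM in Model, and 64.0 and 50.3 FPKM in MUS. The 4 eosinophil markers summed to 4.17 and 2.78 FPKM in Control, 1.95 and 1.42 FPKM in Model, and 1.63 and 1.60 FPKM in MUS, with Siglecf the most abundant and Prg2 and Epx at 0 throughout. The 6 mast cell markers, of which Cma1 had the highest mean over the libraries and Fcer1a was at 0 throughout, summed to between 0.234 and 1.17 FPKM. The 5 platelet markers, with Ppbp highest by that mean, summed to between 0.296 and 0.652 FPKM. The 7 mesothelial and fibroblast markers, with Col1a1 highest by mean but Dcn higher in 3 libraries, summed to 13.7 and 12.1 FPKM in Control, 15.1 and 23.0 FPKM in Model, and 14.2 and 16.2 FPKM in MUS. The 6 markers of resident peritoneal macrophages, with Cxcl13 highest by mean, summed to 13.7 and 29.0 FPKM in Control, 27.5 and 22.9 FPKM in Model, and 21.5 and 19.7 FPKM in MUS. The 5 T cell markers, with Cd4 highest by mean alone, summed to between 0.110 and 0.345 FPKM. The part of other cell types in the values below was not tested.

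A pair of libraries stood apart. Model replicate 1 had 24906 genes with at least 1 fragment, against 17406 to 19200 in the other 5 libraries. Control replicate 2, although untreated, held 35.4 times as much Ptgs2, 16.5 times as much Ptges and 3.29 times as much Pla2g4a as Control replicate 1. This difference between the Control libraries was not limited to these genes. Among the 930 genes called higher in Model, 799 (85.9%) were higher in Control replicate 2 than in Control replicate 1, compared with 5213 of all 9794 genes tested (53.2%). Of the 545 genes called lower in Model, 76 (13.9%) were higher in Control replicate 2. What set this library apart was not tested. Each Control value is therefore given for both libraries, and differences from Control are also given within each batch.

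LPS and ATP together went with higher levels of some of the 10 genes. In Model vs. Control, Ptgs2, Ptges and Pla2g4a were upregulated DEGs, 3 of the 7 genes tested, against 930 of 9794 genes (9.5%) in the whole table. None of the 7 was a downregulated DEG, against 545 genes (5.56%). The median log2 fold change of the 7 genes was 0.69 in Model vs. Control, beside 0.04 for all genes tested. It was 0.10 beside 0.04 in MUS vs. Control and -0.19 beside 0.01 in MUS vs. Model. In both comparisons with Control the median is the value of Ptgis, which was not a DEG, and in MUS vs. Model that of Pla2g4a. The medians thus do not describe Ptgs2 (8.13 in Model vs. Control and 7.98 in MUS vs. Control), Ptges (3.66 and 3.19) and Pla2g4a (2.85 and 2.66). In MUS vs. Control, Ptgs2 and Pla2g4a were upregulated DEGs, against 1107 genes (11.3%) in all, and 0 of the 7 were downregulated, against 873 (8.91%). The balance of all DEGs turned with the scaling, to 738 higher and 1953 lower in MUS vs. Control with fragment-total scaling, and to 758 and 2386 with voom on fragments. These comparisons share the Control libraries.

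In MUS vs. Model, limma called none of the 7 genes, and 0 of 9794 genes in all (0% higher and 0% lower). Before adjustment, p was under 0.05 for 825 genes, with Ptgis the only one of the 7 among them. voom on fragments also gave 0 DEGs, and limma with the replicate block gave 4, none of them among the 10 genes. The MUS libraries lay below both Model libraries for 3 of the 7 genes, Ptgs1, Ptges and Ptgis, and above both for 0, against 21% and 21.2% of all genes tested. Within both batches, 5 of the 7 were lower in MUS, all except Tbxas1 and Alox5ap, where 30.1% of all genes tested were. Alox5ap was higher within both (log2 differences 0.08 and 0.56). Among the 5, the differences were small for Ptgs2 (-0.13 and -0.16) and Pla2g4a (-0.20 and -0.17). The difference of these counts from the shares of all genes was not tested, and 7 genes are few for it.

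**Figure D1:**
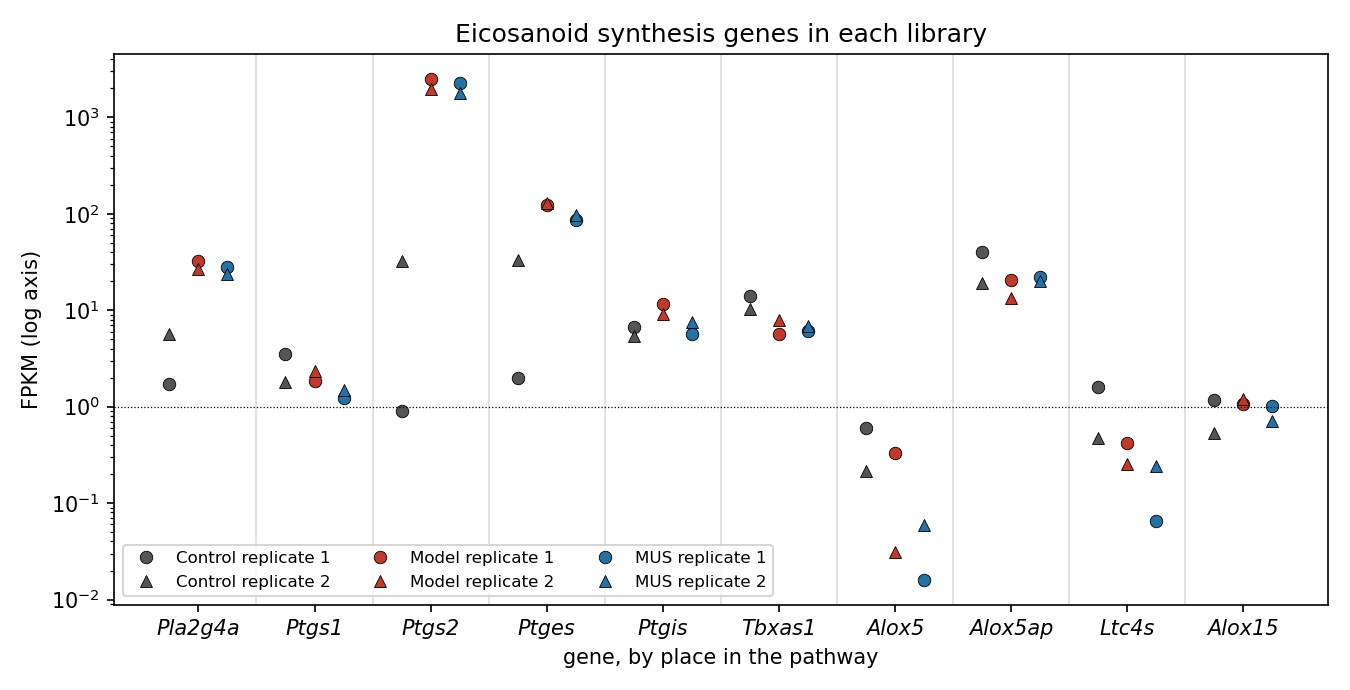
FPKM of the 10 genes in each of the 6 libraries, on a log axis, with circles for replicate 1 (batch 1) and triangles for replicate 2 (batch 2) and a dotted line at 1 FPKM. Ptgs2 ran from 0.907 and 32.1 FPKM in Control to between 1766 and 2494 FPKM in the Model and MUS libraries, and Alox5 stayed under 1 FPKM in every library.

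Arachidonic acid release was followed through Pla2g4a (ENSMUSG00000056220, chromosome 1, 149829618 to 149961290, minus strand). Its level was 1.71 and 5.62 FPKM in Control, 32.3 and 26.9 FPKM in Model, and 28.0 and 23.7 FPKM in MUS. All 4 stimulated libraries lay above both Control libraries, and the Model and MUS ranges overlapped. The rise in Model vs. Control had a log2 fold change of 2.85 (standard error 0.42, limma adjusted p = 0.00689), with 3.62 within batch 1 and 2.08 within batch 2. MUS vs. Control gave a log2 fold change of 2.66 (standard error 0.42, limma adjusted p = 0.00687), while MUS vs. Model gave -0.19 (95% interval -1.17 to 0.80, limma adjusted p = 0.943). The Model vs. Control value was 2.85 without the filter on low levels and 2.72 without Model replicate 1. The MUS vs. Control value was 2.66 without the filter and 2.55 without MUS replicate 1. In Model vs. Control, Pla2g4a was no longer a DEG without the filter on low levels (limma adjusted p = 0.0715) or without Model replicate 1 (0.0507), and its adjusted p over the 15 alternatives lay between 0.000942 and 0.0715. In MUS vs. Control the call was lost without the filter (limma adjusted p = 0.0629) and without MUS replicate 1 (0.0736), within a range of 0.00110 to 0.0736.

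The cyclooxygenase step showed the widest difference of the 10 genes. Ptgs2 (ENSMUSG00000032487, chromosome 1, 150100031 to 150108227, plus strand) was at 0.907 FPKM in Control replicate 1 and 32.1 FPKM in Control replicate 2, from 95 and 3362 fragments. It had 2494 and 1976 FPKM in Model and 2272 and 1766 FPKM in MUS, from between 131348 and 161210 fragments a library. By level it ranked 9981 and 1047 among all genes in the Control libraries, but 18 and 17 in the Model libraries, and 15 in both MUS libraries. The 4 stimulated libraries overlapped between Model and MUS and lay far above Control, also above its replicate 2. Ptgs2 rose in Model vs. Control by a log2 fold change of 8.13 (standard error 1.15, limma adjusted p = 0.00631). MUS vs. Control showed a rise of 7.98 (standard error 1.15, limma adjusted p = 0.00520). Within the batches, the level of Ptgs2 in Model was 2749 times and 61.6 times that in Control, which follows the gap between the Control libraries. Leaving out Control replicate 1 brought the Model vs. Control log2 fold change to 6.07, and without Control replicate 2 it was 10.19. It was 8.13 without the filter on low levels and 7.96 without Model replicate 1. The MUS vs. Control value was 7.98 without the filter and 7.80 without MUS replicate 1. The call in Model vs. Control was lost without the filter on low levels (limma adjusted p = 0.0776) and without Model replicate 1 (0.0507), and that in MUS vs. Control without the filter (0.0638) and without MUS replicate 1 (0.0595). Over the 15 alternatives the adjusted p lay between 0.000224 and 0.0776 in Model vs. Control and between 0.000205 and 0.0638 in MUS vs. Control.

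In MUS the level of Ptgs2 was close to that in Model. It was 0.911 times the Model level within batch 1 and 0.894 times within batch 2. The log2 fold change in MUS vs. Model was -0.15 (95% interval -2.86 to 2.57, limma adjusted p = 0.988). The fit pools the spread of all 3 groups, the gap between the Control libraries included, and the interval is accordingly wide. The sign was positive with quantile normalization (0.21), without Model replicate 1 (0.02) and without MUS replicate 2 (0.03).

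Ptgs1 (ENSMUSG00000047250, chromosome 2, 36230426 to 36252272, plus strand) was at 3.49 and 1.79 FPKM in Control, 1.82 and 2.34 FPKM in Model, and 1.24 and 1.49 FPKM in MUS. Model overlapped Control, and both MUS libraries lay below all others. Ptgs1 was not a DEG, with log2 fold changes of -0.20 in Model vs. Control (limma adjusted p = 0.637), -0.38 in MUS vs. Model (0.766) and -0.58 in MUS vs. Control (0.166). In MUS vs. Control, Ptgs1 stood at -0.24 without Control replicate 1 and at -0.93 without Control replicate 2. With voom on fragments it was a DEG in MUS vs. Control (log2 fold change -1.40, limma adjusted p = 0.0473), and over the alternatives its adjusted p there lay between 0.0473 and 0.614. The balance between the cyclooxygenases thus differed by library. Control replicate 1 held 3.85 times as much Ptgs1 as Ptgs2 per length, whereas Control replicate 2 held 17.9 times as much Ptgs2 as Ptgs1. In Model and MUS, Ptgs2 exceeded Ptgs1 by between 843 and 1827 times.

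Among the terminal synthases, Ptges followed Ptgs2, and Ptgis and Tbxas1 did not. Ptges (ENSMUSG00000050737, chromosome 2, 30889471 to 30929863, minus strand) had 2.00 and 33.0 FPKM in Control, 122 and 130 FPKM in Model, and 85.5 and 97.5 FPKM in MUS. The groups did not overlap, with Control lowest, MUS between and Model highest. Ptges rose in Model vs. Control with a log2 fold change of 3.66 (standard error 0.97, limma adjusted p = 0.0437), made of 5.36 within batch 1 and 1.95 within batch 2. This call was close to the threshold, and it was lost under 8 of 15 alternatives, among them those without Model replicate 1 (limma adjusted p = 0.154), Model replicate 2 (0.121), MUS replicate 1 (0.0902) or MUS replicate 2 (0.0899), with an adjusted p between 0.000283 and 0.220 over all 15. Without Control replicate 1 the log2 fold change was 1.90, and without Control replicate 2 it was 5.41. It was 3.70 without Model replicate 1, 3.61 without Model replicate 2 and 3.66 without either MUS replicate. In MUS vs. Control the log2 fold change of Ptges was 3.19 (limma adjusted p = 0.0524), not a DEG, but with the replicate block it was one (limma adjusted p = 0.0233). It was also one without Control replicate 1 (log2 fold change 1.44, limma adjusted p = 0.0327) and without Control replicate 2 (log2 fold change 4.94, 0.000359), and the adjusted p lay between 0.000359 and 0.234 over the alternatives.

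In MUS vs. Model, Ptges had 0.699 times the Model level in batch 1 and 0.748 times in batch 2. Its log2 fold change was -0.46 (95% interval -2.75 to 1.83, limma adjusted p = 0.939), which did not pass the test. As for Ptgs2, the pooled spread behind this interval includes the gap between the Control libraries. With 2 groups only, the limma adjusted p of Ptges was 0.631, also not a DEG.

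Ptgis, the prostacyclin synthase gene (ENSMUSG00000017969, chromosome 2, 167191805 to 167240604, minus strand), was at 6.64 and 5.43 FPKM in Control, 11.6 and 9.15 FPKM in Model, and 5.67 and 7.48 FPKM in MUS. Both Model libraries lay above the 4 others, while MUS overlapped Control. Neither the log2 fold change of 0.69 in Model vs. Control (95% interval 0.11 to 1.27, limma adjusted p = 0.0967) nor that of -0.59 in MUS vs. Model (95% interval -1.17 to -0.01, limma adjusted p = 0.586) passed the test. The Model vs. Control log2 fold change of Ptgis was 0.21 with fragment-total scaling (limma adjusted p = 0.557) and 0.23 with voom on fragments (0.578), and its adjusted p over the alternatives lay between 0.0884 and 0.578. Within the batches, the difference of MUS from Model was -0.92 and -0.26. Per length, Ptgis exceeded Ptges by 3.32 times in Control replicate 1, whereas Ptges exceeded Ptgis by 6.08 times in Control replicate 2 and by between 10.5 and 15.1 times in Model and MUS.

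Tbxas1, the thromboxane synthase gene (ENSMUSG00000029925, chromosome 6, 38875404 to 39084585, plus strand), was at 14.1 and 10.3 FPKM in Control, 5.73 and 7.88 FPKM in Model, and 6.11 and 6.85 FPKM in MUS. All 4 stimulated libraries lay below both Control libraries, and Model and MUS overlapped. It was not a DEG. The log2 fold change from Control was -0.76 for Model (standard error 0.26, limma adjusted p = 0.0867) and -0.80 for MUS (standard error 0.26, limma adjusted p = 0.0599), and MUS vs. Model stood at -0.05 (limma adjusted p = 0.976). The library size that the deposited FPKM imply was 1.45 and 1.34 times the fragments on genes in Control and between 0.909 and 0.998 times in the other libraries. With FPKM rescaled to the fragment totals, the median log2 fold change of all genes in Model vs. Control moved from 0.04 to -0.40, and upregulated DEGs went from 930 of 1475 to 646 of 2200. Tbxas1 was then a downregulated DEG in Model vs. Control (log2 fold change -1.26, limma adjusted p = 0.0228) and in MUS vs. Control (-1.30, 0.0159), which is -0.86 and -0.91 relative to the median of all genes. Over the alternatives its adjusted p lay between 0.0163 and 0.346 in Model vs. Control and between 0.0116 and 0.310 in MUS vs. Control. Tbxas1 overlaps Hipk2 on the opposite strand, which was at 11.7 and 13.1 FPKM in Control, 3.24 and 16.8 FPKM in Model, and 9.26 and 12.9 FPKM in MUS. The sources do not say that fragments were counted by strand, so those of a stretch shared across strands cannot be told apart. The search for shared stretches given below listed none between the transcripts of Tbxas1 and those of Hipk2. The part of Hipk2 in the Tbxas1 values was not otherwise tested.

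**Figure D2:**
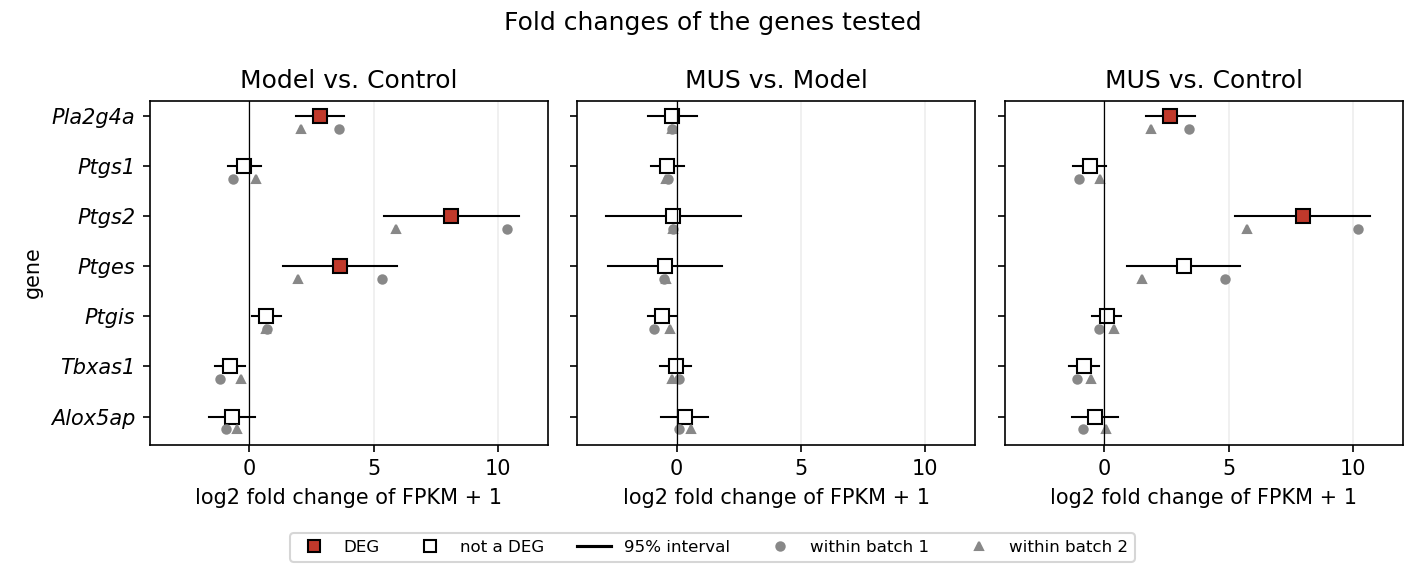
Fold changes of the 7 genes tested in the 3 comparisons, as log2 of FPKM + 1, with squares for the estimate (red for DEGs), lines for its 95% interval, and small circles and triangles for the difference within batch 1 and batch 2. Ptgs2 and Pla2g4a lie at 8.13 and 2.85 in Model vs. Control and at 7.98 and 2.66 in MUS vs. Control, and in MUS vs. Model all 7 lie between -0.59 and 0.32.

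Of the 4 genes of the lipoxygenase branch among the 10, only that of the helper protein was above the filter. Alox5ap, which encodes FLAP (ENSMUSG00000060063, chromosome 5, 149264767 to 149288153, plus strand), was at 40.0 and 19.0 FPKM in Control, 20.8 and 13.3 FPKM in Model, and 21.9 and 20.1 FPKM in MUS. Control replicate 1 was the highest library and Model replicate 2 the lowest, and the groups overlapped in every comparison. Log2 fold changes of Alox5ap were -0.70 for Model vs. Control (limma adjusted p = 0.256), 0.32 for MUS vs. Model (0.880) and -0.38 for MUS vs. Control (0.508), none a DEG. With voom on fragments it was a DEG in Model vs. Control (log2 fold change -1.28, limma adjusted p = 0.0471), with an adjusted p between 0.0471 and 0.7998 over the alternatives. Its log2 fold change there was -1.23 with fragment-total scaling, -0.18 without Control replicate 1, -1.22 without Control replicate 2 and -0.40 without Model replicate 2, and without the last that in MUS vs. Model was 0.02. Leaving out Control replicate 1 brought MUS vs. Control to 0.14.

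Alox5, the 5-lipoxygenase gene (ENSMUSG00000025701, chromosome 6, 116410077 to 116461178, minus strand), had 0.607 and 0.213 FPKM in Control, 0.328 and 0.031 FPKM in Model, and 0.016 and 0.060 FPKM in MUS. The Control values rest on 57 and 20 fragments, the Model values on 19 and 2, and the MUS values on 1 and 4, so most of the stimulated levels stand on few fragments. MUS lay below Control, and Model overlapped both. In every library the level of Alox5ap per length was at least 63.3 times that of Alox5.

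Ltc4s, the leukotriene C4 synthase gene (ENSMUSG00000020377, chromosome 11, 50236461 to 50238616, minus strand), had 1.60 and 0.474 FPKM in Control, 0.419 and 0.255 FPKM in Model, and 0.065 and 0.243 FPKM in MUS, from 37 and 11, 6 and 4, and 1 and 4 fragments. The 3 groups did not overlap, but Control replicate 2 and Model replicate 1 were close, and Model replicate 2 and MUS replicate 2 both rest on 4 fragments, so that only the library scaling sets them apart. Alox15, the 12/15-lipoxygenase gene (ENSMUSG00000018924, chromosome 11, 70344152 to 70352031, minus strand), had 1.18 and 0.534 FPKM in Control, 1.07 and 1.21 FPKM in Model, and 1.02 and 0.702 FPKM in MUS. Its groups overlapped in Model vs. Control and in MUS vs. Control, and both MUS libraries lay below Model. MUS replicate 1 had 38 fragments and Model replicate 1 had 37, so that only the library scaling puts the former lower. Like Alox5, neither gene passed the filter on low levels, and without the filter none of the 3 was a DEG in any comparison (limma adjusted p between 0.320 and 1).

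By mean level in Control the order was Alox5ap, Ptges, Ptgs2, Tbxas1, Ptgis, Pla2g4a, Ptgs1, Ltc4s, Alox15 and Alox5, with Ptges and Ptgs2 placed high by replicate 2 alone. In Model it was Ptgs2, Ptges, Pla2g4a, Alox5ap, Ptgis, Tbxas1, Ptgs1, Alox15, Ltc4s and Alox5, and the order by mean level in MUS was that of Model. In Model, the libraries of neighbours in this order overlapped for Ltc4s and Alox5 alone, and in MUS for Ptgis and Tbxas1 alone. In Control they overlapped from Alox5ap down to Tbxas1, from Ptgis down to Ptgs1 and from Ltc4s down to Alox5.

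Further genes of the pathway were set beside the share of all genes tested, and the difference from that share was not tested. Of 55 further pathway genes in the table, 26 were tested. In Model vs. Control, 1 of the 26 was upregulated, against 9.5% of all genes tested, and 5 were downregulated, against 5.56%, with a median log2 fold change of -0.38 against 0.04. For MUS vs. Control, 1 was upregulated (11.3% of all genes tested) and 5 were downregulated (8.91%), with a median of -0.30 against 0.04. The share of all genes downregulated depends on the scaling, with 1554 genes in Model vs. Control with fragment-total scaling and 2050 with voom on fragments, in place of 545. The 5 include Dagla and Cbr1 in both comparisons, which passed the filter on low levels only through Control, so they had to be lower elsewhere and give these counts and medians no support. In MUS vs. Model, limma called 0 of the 26, with a median of -0.04 against 0.01.

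The list of phospholipases and related lipases held most of these DEGs. Whether each of them frees arachidonic acid in these cells was not tested. Of 7 tested, Dagla is left out of the count for the reason given, and of the other 6, 1 rose and 2 fell in Model vs. Control, against 9.5% and 5.56% of all genes tested. Pla2g16, a phospholipase A and acyltransferase gene, was at 1.18 and 3.26 FPKM in Control, 17.0 and 10.2 FPKM in Model, and 9.99 and 9.29 FPKM in MUS, and it rose in Model vs. Control (log2 fold change 2.22, limma adjusted p = 0.0106). Mgll, which encodes monoacylglycerol lipase, was at 5.10 and 6.70 FPKM in Control, 1.26 and 1.93 FPKM in Model, and 0.821 and 1.76 FPKM in MUS, and it fell in Model vs. Control (log2 fold change -1.41, limma adjusted p = 0.0187). Dagla, a diacylglycerol lipase gene, was at 3.44 and 1.81 FPKM in Control, 0.123 and 0.539 FPKM in Model, and 0.115 and 0.321 FPKM in MUS (log2 fold change -1.43 in Model vs. Control, limma adjusted p = 0.0258), with Control alone lifting its mean over the filter. Control and Model did not overlap for any of these genes. Pla2g15, a lysosomal phospholipase gene, was at 39.6 and 20.1 FPKM in Control, 9.45 and 7.67 FPKM in Model, and 4.94 and 7.62 FPKM in MUS (log2 fold change -1.62, limma adjusted p = 0.0270). All 4 were also DEGs in MUS vs. Control, in the same direction, with log2 fold changes of 1.80 for Pla2g16, -1.61 for Mgll, -1.54 for Dagla and -2.03 for Pla2g15 (limma adjusted p = 0.0160, 0.00950, 0.0156 and 0.0102). Daglb, the second diacylglycerol lipase gene, was at 15.7 and 3.68 FPKM in Control, 1.67 and 1.75 FPKM in Model, and 1.31 and 1.60 FPKM in MUS. It was a DEG in MUS vs. Control (log2 fold change -1.85, limma adjusted p = 0.0435) but not in Model vs. Control (-1.71, 0.0681). The highest level of the list was that of Pla2g7, the platelet-activating factor hydrolase gene, at 87.8 and 130 FPKM in Control, 107 and 97.4 FPKM in Model, and 168 and 146 FPKM in MUS.

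Of 6 other prostaglandin synthase genes tested, Cbr1 was the DEG in Model vs. Control and in MUS vs. Control, where 5.56% and 8.91% of all genes tested were downregulated, so that 1 call says nothing of the list. Cbr1, a carbonyl reductase gene, was at 3.05 and 1.75 FPKM in Control, 0.527 and 0.581 FPKM in Model, and 0.466 and 0.771 FPKM in MUS, with log2 fold changes of -1.10 and -1.05 from Control (limma adjusted p = 0.0350 and 0.0332). It too reached the filter through Control alone. Ptges3, known both as a prostaglandin E synthase and as the chaperone partner p23, had the highest level of this list, at 28.8 and 41.2 FPKM in Control, 90.6 and 51.9 FPKM in Model, and 75.9 and 58.5 FPKM in MUS (log2 fold change 0.97 in Model vs. Control, limma adjusted p = 0.119). Of 3 further leukotriene enzyme genes tested, Lta4h fell in Model vs. Control, beside the same 5.56%. Lta4h, which makes leukotriene B4, was at 11.8 and 7.17 FPKM in Control, 4.52 and 3.49 FPKM in Model, and 5.497 and 4.742 FPKM in MUS, with a log2 fold change of -1.04 (limma adjusted p = 0.0435) in Model vs. Control and -0.75 (0.0902) in MUS vs. Control. Mgst1, a microsomal glutathione transferase gene, was the most abundant there, at between 33.4 and 76.2 FPKM.

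None of the 5 breakdown and transport genes and 5 receptor genes tested was a DEG in Model vs. Control (9.5% of all genes tested higher and 5.56% lower) or in MUS vs. Control (11.3% and 8.91%) by limma, and 10 genes are too few to set 0 apart from these shares. Abcc1, an export pump for leukotriene C4, had the highest mean over the 6 libraries among the transport and breakdown genes, though not the highest level in Control replicate 1, at 6.27 and 27.2 FPKM in Control, 10.6 and 18.7 FPKM in Model, and 16.5 and 18.8 FPKM in MUS. Ptgir, the prostacyclin receptor gene, had the highest mean over the 6 libraries among the receptors, through Control, at 4.79 and 8.19 FPKM in Control, 2.15 and 3.31 FPKM in Model, and 2.26 and 3.25 FPKM in MUS. Both stimulated groups lay below Control, with log2 fold changes of -0.99 and -0.97 (limma adjusted p = 0.0677 and 0.0570).

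These calls depended on the settings and on single libraries. Every one was lost without the filter on low levels (limma adjusted p between 0.0714 and 0.204). With 2 groups only, Pla2g15 (0.0642), Dagla (0.0618), Cbr1 (0.0790) and Lta4h (0.0989) were not DEGs in Model vs. Control, nor Daglb (0.0731) in MUS vs. Control. A pseudocount of 0.1 ended the Model vs. Control calls of Dagla (0.0713) and Cbr1 (0.0522), quantile normalization those of Lta4h in Model vs. Control (0.0502) and Daglb in MUS vs. Control (0.0627), and fitting no trend that of Lta4h (0.0517).

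Single libraries ended further calls. In Model vs. Control, leaving out Model replicate 1 ended the calls of Pla2g16 (limma adjusted p = 0.0630), Mgll (0.0918), Dagla (0.0994), Pla2g15 (0.0908), Cbr1 (0.105) and Lta4h (0.0978). Leaving out Control replicate 1 ended those of Dagla (0.0870), Pla2g15 (0.104), Cbr1 (0.132) and Lta4h (0.213), and leaving out Control replicate 2 that of Mgll (0.0539). Without Model replicate 2, the calls of Pla2g15 (0.0886), Cbr1 (0.0726) and Lta4h (0.120) were lost. Without MUS replicate 1 or MUS replicate 2, which only help to set the spread, those of Dagla (0.0625 and 0.0639), Pla2g15 (0.0615 and 0.0601), Cbr1 (0.0788 and 0.0805) and Lta4h (0.0986 and 0.0984) were lost. In MUS vs. Control, leaving out MUS replicate 1 ended the calls of Pla2g16 (0.122), Mgll (0.0941), Dagla (0.130), Pla2g15 (0.105), Daglb (0.220) and Cbr1 (0.225). Without Control replicate 1, Pla2g16 (0.0685), Dagla (0.0534), Daglb (0.0739) and Cbr1 (0.117) were not DEGs, and without MUS replicate 2, Pla2g16 (0.0817), Dagla (0.0723), Daglb (0.143) and Cbr1 (0.108) were not. Daglb was also lost without Model replicate 1 (0.0719) and Model replicate 2 (0.0716). Each of these genes kept its sign in every alternative. With a library left out, the log2 fold changes in Model vs. Control ran from 1.74 to 2.71 for Pla2g16, -1.60 to -1.22 for Mgll, -1.76 to -1.10 for Dagla, -2.09 to -1.15 for Pla2g15, -1.38 to -0.82 for Cbr1 and -1.37 to -0.71 for Lta4h. Those in MUS vs. Control ran from 1.32 to 2.29 for Pla2g16, -1.91 to -1.31 for Mgll, -1.87 to -1.21 for Dagla, -2.50 to -1.56 for Pla2g15 and -1.33 to -0.77 for Cbr1, and from -2.77 to -0.93 for Daglb, the last without Control replicate 1. Other settings moved some values further. The lowest in Model vs. Control was then -3.78 for Dagla, -2.57 for Cbr1, -2.45 for Mgll and -1.76 for Lta4h. In MUS vs. Control it was -4.18 for Dagla, -2.44 for Cbr1, -2.81 for Mgll and -2.94 for Daglb. Over the alternatives, the lowest adjusted p among these calls was 0.00144 and the highest was 0.225.

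The 5 genes whose pattern over the 6 libraries was most like that of Ptgs2 were Cxcl10, Cmpk2, Rsad2, Ifit1 and Isg15. Likeness was the root mean square difference between the genes' log2(FPKM + 1) after each gene's mean was taken off, and it was 0.21 for Cxcl10, 0.52 for Cmpk2, 0.54 for Rsad2, 0.60 for Ifit1 and 0.66 for Isg15. Cxcl10, a chemokine gene, was at 0.505 and 29.2 FPKM in Control, 3154 and 1811 FPKM in Model, and 2314 and 1885 FPKM in MUS. All 5 genes are known to be induced by interferons. Rsad2 was at 4.99 and 53.1 FPKM in Control, 2439 and 2195 FPKM in Model, and 3440 and 2621 FPKM in MUS. The choice of these genes fixes that they share the pattern of Ptgs2.

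Pla2g4a and Ptgs2, next to each other in the pathway, also lie near each other on chromosome 1, with Ptgs2os between them. They are on opposite strands and point away from each other, with 138741 bases from gene start to gene start. A gene on the opposite (minus) strand lies on each side of Ptgs2, and neither of them overlaps it. Ptgs2os2 (ENSMUSG00000097754, 150159043 to 150164948) lies 50816 bases past the end of Ptgs2. It was at 0.075 and 1.25 FPKM in Control, 35.4 and 26.7 FPKM in Model, and 28.3 and 25.2 FPKM in MUS, so that the stimulated libraries were high and overlapped between Model and MUS. On the log2 scale it rose from Control by 4.35 in Model (standard error 0.37, limma adjusted p = 0.00157) and by 4.15 in MUS (standard error 0.37, limma adjusted p = 0.00136), and MUS vs. Model stood at -0.20 (limma adjusted p = 0.929). Its mean reached the filter through Model and MUS alone, but both calls held without the filter (limma adjusted p = 0.0309 and 0.0268). Ptgs2os (ENSMUSG00000097028, 150074873 to 150099963) lies 68 bases before Ptgs2. Its fragments numbered 0 and 0 for Control, 2 and 11 for Model, and 20 and 18 for MUS, so that it was under 1 FPKM throughout and was not tested.

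Near-identical copies were looked for as 50-base stretches shared with the transcripts of any other gene. None were found (0%) for Ptgs2, Ptges, Pla2g4a, Alox5 and Alox15. The share was 1.7% for Tbxas1, 2.63% for Ptgs1, 4.25% for Ptgis, 6.8% for Alox5ap and 15.24% for Ltc4s. For Ltc4s these stretches belong to Gm26542 on the opposite strand, and for Alox5ap to Gm19719, also opposite, at most at 0.092 FPKM. Gm26542 was at 0.306 FPKM in Model replicate 2 and 0.179 FPKM in MUS replicate 1, and at most at 0.03 FPKM elsewhere. Ltc4s itself was lower in those libraries, at 0.255 and 0.065 FPKM. The part of Gm26542 in the Ltc4s values was not tested. Ptges contains the pseudogene Gm13400, which was at 0.115 and 0.345 FPKM in Control, 0 and 0.510 FPKM in Model, and 0.522 and 1.30 FPKM in MUS.

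Promoter sequence was at hand for 7 of the 10 genes, with 8 promoters in the RefSeq table on build GRCm38.p6, each running from 250 bases before to 50 bases after a gene start. The 250 bases before the start are shown for the 3 genes that rose in Model vs. Control, with matches of the searched motifs in capitals. The motifs, searched on both strands, were the TATA box letters TATAAA, a cyclic AMP response element core CGTCA, the AP-1 letters TGANTCA, the C/EBP letters TTNNGNAA and the NF-kB consensus.
Pla2g4a (chr1:149961291-149961540, minus strand): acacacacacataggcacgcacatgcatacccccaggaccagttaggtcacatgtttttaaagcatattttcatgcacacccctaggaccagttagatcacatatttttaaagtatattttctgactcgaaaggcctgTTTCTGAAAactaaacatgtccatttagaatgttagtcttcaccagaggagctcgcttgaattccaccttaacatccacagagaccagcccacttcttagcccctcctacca
Ptgs2 (chr1:150099781-150100030, plus strand): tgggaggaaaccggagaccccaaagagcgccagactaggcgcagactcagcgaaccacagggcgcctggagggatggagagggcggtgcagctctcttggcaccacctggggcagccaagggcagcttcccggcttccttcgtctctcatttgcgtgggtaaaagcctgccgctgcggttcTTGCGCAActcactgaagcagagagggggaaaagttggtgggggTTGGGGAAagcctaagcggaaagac
Ptges (chr2:30903298-30903547, minus strand): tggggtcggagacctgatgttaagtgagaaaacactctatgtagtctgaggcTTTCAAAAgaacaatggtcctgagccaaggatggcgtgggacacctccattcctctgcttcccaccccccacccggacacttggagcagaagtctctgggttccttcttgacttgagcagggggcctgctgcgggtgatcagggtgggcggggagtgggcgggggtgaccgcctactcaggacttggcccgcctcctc
All the capitals are matches of TTNNGNAA. It was found in these 3 promoters of the 8, where 40.7% of the 32851 promoters of the table hold a match. In Ptgs2 one match, TTGCGCAA, is its own reverse complement and starts 69 bases before the gene start, and TTGGGGAA starts 25 bases before it. In Pla2g4a the matches on the plus and minus strands overlap. CGTCA was found in 1 of the 8 promoters, that of Ptgs2, 14 bases into the gene, against 20.8% of all promoters. TATAAA was found in 2 of the 8, a further promoter of Pla2g4a and that of Tbxas1, against 13.6%, and TGANTCA in that of Tbxas1, against 7.81%. The NF-kB consensus matched 0 of the 8 and 4.51% of all promoters, which says only that these letters are not in these windows. The gene start that RefSeq gives for Ptges lies inside the interval of the table. A match is a description of the sequence, and no binding was measured.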

How the data were processed

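RNA was measured by poly-A RNA-seq in 6 libraries, 2 each of Control, Model and MUS. The authors deposited the values as FPKM per gene. The submitters' processing notes name HISAT2, featureCounts 1.5.0-p3 and the build GRCm39, whereas the study's methods name RSEM for quantification and DESeq2 for testing. Positions in the table match GRCm38, as 53499 of the 54409 gene identifiers shared with GENCODE M21 (98.3%) have its start and end, and are given on that build. FPKM multiplied by gene length came out as a whole multiple of a fixed step, within 0.1 of it, for 100% of the values examined, so fragments per gene were recovered. For a gene of 1 kb, 3 fragments correspond to between 0.131 and 0.213 FPKM, which covers counting error only.

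limma 3.58.1 in R 4.3.3 was fitted with a mean-variance trend to log2(FPKM + 1), all 6 libraries together, for 9794 genes whose mean reached 1 FPKM, with 3 residual and 4.04 prior degrees of freedom, two-sided tests and Benjamini-Hochberg adjustment. The fit was tested on simulated data. As the deposited unit is FPKM, the recovered fragments were tested only as an alternative, with voom. The labels give the replicate number as the batch, so it pairs the libraries. The deviations of same-numbered libraries correlated across genes at 0.12 between Control and Model, 0.14 between Model and MUS, and -0.09 between MUS and Control. The replicate block was an alternative, as were another pseudocount (0.1), other filters (none, or a mean FPKM of at least 5), fragment-total scaling, quantile normalization, voom on fragments, fitting 2 groups only, no trend and leaving out each library.

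The genes named are the 10 genes, further pathway genes that were DEGs with libraries not overlapping (up to 6 per list and comparison), the most abundant gene of each list, the 5 genes most like Ptgs2, and genes overlapping the 10. Any other gene is said to be named after its values were seen. The 10 genes and the lists were chosen with earlier results of these data known. Tables and figures were made with Python 3.11.15, NumPy 2.4.6, pandas 2.3.3 and Matplotlib 3.10.9. Protein sequences were not used here.

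One of the planned lists of cell type markers is not reported here.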

Additional observations from a re-analysis of the deposited data

How the results depend on the processing

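The number of DEGs and of the 10 genes among them depended on the processing. In Model vs. Control, 1475 DEGs became 260 without the filter on low levels, 2734 with voom on fragments and 797 with 2 groups only, and 3 of the 10 genes became 0, 5 and 2. The 1980 DEGs of MUS vs. Control became 456 without the filter and 3144 with voom, and 2 of the 10 genes became 0 and 4. In MUS vs. Model, 0 DEGs became 1 with a pseudocount of 0.1, 7 with 2 groups only and 4 with the replicate block, none of them among the 10 genes. The cause of these shifts was not tested.

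With the replicate block, DEGs numbered 1582 in Model vs. Control and 2125 in MUS vs. Control. Of the calls of the 10 genes, the block changed that of Ptges in MUS vs. Control and no other.

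Leaving out each library in turn gave 692 to 2077 DEGs in Model vs. Control, with 0 to 3 of the 10 genes, 0 to 31 in MUS vs. Model, and 184 to 2398 in MUS vs. Control, with 0 to 3 of the 10 genes. The count of 0 came without Model replicate 1 in the first and without MUS replicate 1 in the last. A group left with 1 library was assumed to vary like the others.

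Signs turned only for fold changes that were not called. In MUS vs. Model, Ptgs2 was at 0.21 with quantile normalization and between -0.33 and 0.033 with a library left out, and Tbxas1 between -0.25 and 0.15 in the same way. In MUS vs. Control, Ptgis was at -0.37 with fragment-total scaling, at -0.42 with voom and between -0.072 and 0.27 with a library left out, and Alox5ap between -0.90 and 0.14 with a library left out. In Model vs. Control, Ptgs1 lay between -0.55 and 0.14 with a library left out, and at -0.81 with voom. Alox5, Ltc4s and Alox15 did not pass the filter, and without it none was a DEG.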
